A study of Drosophila melanogaster with 24 samples.

Results

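The genes described are 44 genes of the accessory gland and seminal fluid proteins of Drosophila melanogaster, of 12024 genes in the table. They were chosen by their FlyBase symbols, 17 named Acp (accessory gland protein) and 27 named Sfp (seminal fluid protein). The symbols alone decided which genes entered, but earlier results of these data were known when the set was chosen. All 44 were present, and all 44 passed the filter on low values described below. The accessory glands of the male are paired secretory organs beside the ejaculatory duct. Their cells make large amounts of secreted peptides and proteins, which pass through the endoplasmic reticulum, collect in the lumen of the gland and are given to the female with the sperm. In the mated female these proteins raise egg laying, lower the readiness to mate again, and act in sperm storage, sperm competition and the formation of the mating plug. Among them are prohormones, protease inhibitors, lectins and many short peptides for which no role is known, and the genes are transcribed in adult males, mostly in this gland.

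RNA was sequenced from libraries of 20 whole males each, at most 16 h old, of the isogenic strain w1118iso/Dp(1;Y)y+iso;2iso;3iso, so that all organs of very young adults were measured together. F1 flies were kept throughout life at 18 °C (F1-18, cold-treated) or at 25 °C (F1-25, control). F2 eggs were laid at the temperature of their F1 parents, so that those of the G18 groups began at 18 °C. All F2 flies were then reared at 25 °C from these eggs, which were washed to remove microbes and placed on boiled food on which F1 males had left faeces, and each F2 group is named by the F1 temperature behind its microbiome (M) and its germline (G). The libraries with values were 4 of F2-M18-G18, 4 of F2-M18-G25, 3 of F2-M25-G18, 4 of F2-M25-G25, 4 of F1-18 and 3 of F1-25, together 22 of the 24 samples of the series. The samples of a group are biological replicates per the methods of the study, and p-values measure the spread between them.

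For the crossed groups F2-M18-G25 and F2-M25-G18 the titles and characteristics of the samples contradict the library names, and the names, read as microbiome then germline, were used here. In 7150 genes, 22 of the 44 members among them, replicates C and D of the group F2-M25-G25 carry no measurement of their own, since each is the A and B mean shifted by a whole number. Such values were not used, so that F2-M25-G25 has 2 libraries for those members and 4 for the other 22, and replicate C is described apart. The number of reads behind a library was worked out from the smallest steps between its low values. It was 2142949 to 6953715 in the 21 libraries in which it could be recovered, and 1 read was worth 0.775 to 1.34 units. Of these 21 totals, 13 lay within 0.1% of a total the study lists, but only 1 under the library's own name, 4 under another replicate of the same group and 8 under a library of another group. Among the last were F1-18 B, F1-18 C and F1-25 B, which matched libraries of the other F1 temperature, and F2-M18-G18 A, F2-M18-G25 A, F2-M25-G18 A, F1-18 D and F1-25 D. Libraries are named as in the deposited table, and the counts below are also given without these 8 libraries and without the 3 F1 libraries.

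Values are TMM-normalized signals per gene, close in scale to read counts. A fold change is a difference of group means of log2(value + 2), given with its standard error, and it understates the change of genes with low values. A gene was called at a Benjamini-Hochberg adjusted p under 0.05 in limma, two-sided, adjusted over 11314 genes that reached 10 units in 3 or more libraries. In RNA from whole flies, fewer cells of the gland and less RNA per cell cannot be told apart.

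The members spanned a wide range of levels. Per kb of exon length, the mean over 20 libraries (F2-M25-G25 entering with A and B only) was highest for Acp95EF, a very short gene of 243 bp of exon, with 5665 units per kb. It was followed by Sfp87B with 3179, Sfp60F with 2858, Acp53Ea with 1523, Acp53C14b with 1466 and Acp36DE with 1371 units per kb, against a median of 158 and a lowest value of 16.1 for Sfp38D. The first 6 members by value held 62.7% of the summed value of the 44. Not per length, the mean value was over 1000 in 4 members, under 50 in 16 and under 10 in 1, Sfp79B, so that for many of the Sfp genes a value rests on few reads.

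The members share features of position, which their symbols follow, and of length. In the Release 6 assembly, 22 of the 44 (50%) lie on chromosome arm 2L, against 18.7% of the 11888 genes of the table with a position. There are 8 on 2R, 8 on 3L and 6 on 3R, and none on X, which holds 15.8% of all genes. They are short, with a median exon length of 462 bp against 1867 bp for all genes, and 14 have 1 exon and 25 have 2. Several are close neighbours on the same strand. Acp26Aa (2L from 5892883 to 5893896) and Acp26Ab (2L from 5892298 to 5892862) are 20 bp apart. Acp53C14a, Acp53C14b, Acp53Ea and Acp53C14c follow each other on 2R between 16747834 and 16751495 with 224, 342 and 440 bp between them, and Sfp53D ends 2719 bp before the first. Sfp24Ba, Sfp24Bb and Sfp24Bc (2L from 3667977 to 3670581) are 709 and 355 bp apart, and Sfp33A4, Sfp33A2 and Sfp33A3 (2L from 11837243 to 11840329) are 226 and 1862 bp apart. Reads that run between close neighbours on 1 strand could be given to either, and Sfp87B lies within the span of svp on the same strand.

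**Figure D1:**
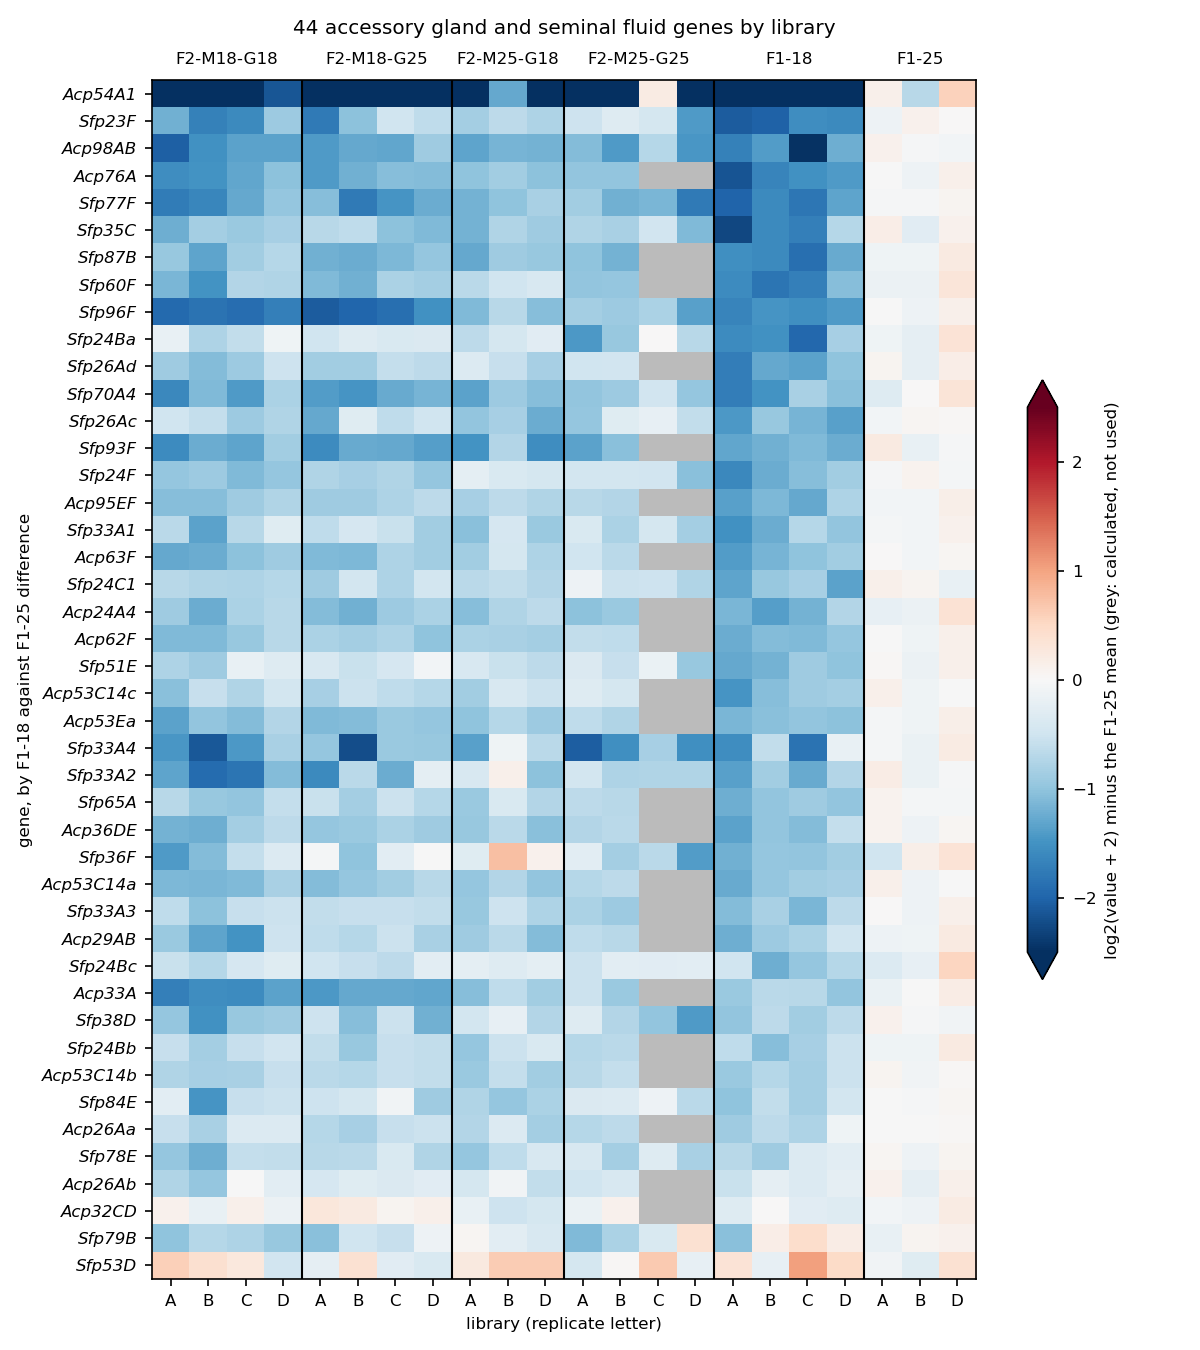
Each row is 1 of the 44 genes and each column 1 library, grouped by condition, with colour for log2(value + 2) minus the mean of the 3 F1-25 libraries and grey for the calculated values that were not used. Nearly all cells outside F1-25 are blue, that is lower, and Acp32CD, Sfp79B and Sfp53D at the bottom are the rows with a mix of colours.

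F1-18 against F1-25 compares newly hatched males kept throughout life at 18 °C and at 25 °C. Both were collected at an age of at most 16 h, and temperature and adult maturity at that age cannot be told apart. Seminal fluid protein genes were lower in the cold-treated males almost throughout. Of the 44 members, 39 were called lower and 0 higher, at a median log2 fold change of -1.08, which is 0.473 of the control level. Over all genes tested 12.6% were called lower and the median was 0.01. In 40 members every F1-18 library lay below every F1-25 library, which was so in 15.1% of all genes tested. The summed value of the 44 was 10168 to 14445 in the F1-18 libraries and 22966 to 27157 in the F1-25 libraries, 0.232 to 0.340% and 0.617 to 0.675% of all values. Without the 8 libraries with totals of another group, 30 members were called lower (1 library then stood for each F1 group and was taken to vary like the other groups), and without the 3 F1 libraries 32. F1-18 A, whose total matched its own name, lay below F1-25 A in 43 of 44 members. This is 1 pair of libraries, and the share of all genes was not worked out for it.

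Members with known work in the mated female were among the genes called. Acp36DE, a large glycoprotein that the female needs to store sperm, had values of 2598, 3352, 3109 and 4366 in the F1-18 libraries, against 6993, 6066 and 6821 in the F1-25 libraries (log2 fold change -1.004 ± 0.15, adjusted p = 0.000115). Even the highest cold-treated library was below the lowest control library. Acp29AB, a lectin-like protein that also acts in sperm storage, had 46.03, 57.2, 62.8 and 77.1 in F1-18 and 100.2, 102 and 129 in F1-25 (log2 fold change -0.85 ± 0.19, adjusted p = 0.00341). Acp26Aa encodes ovulin, a prohormone that raises ovulation. Its values were 482, 565, 523 and 827 in F1-18, against 891, 885 and 908 in F1-25 (log2 fold change -0.61 ± 0.15, adjusted p = 0.00711), with F1-18 D close under the control libraries and the others well below. Its neighbour Acp26Ab was not called, with 109, 138, 128 and 138 in F1-18 and 174, 138 and 175 in F1-25 (log2 fold change -0.33 ± 0.18, adjusted p = 0.185), and the groups overlapped. Whether the neighbours differed from each other was not tested.

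The protease inhibitors Acp76A and Acp62F were lower. Acp76A, a serpin (an inhibitor of serine proteases), had 228, 324, 356 and 382 in F1-18, against 1010.2, 941 and 1122 in F1-25, the smallest adjusted p of the 44 members (log2 fold change -1.69 ± 0.15, adjusted p = 7.55e-07). The groups were far apart. Acp62F, another protease inhibitor, had 362, 408, 403 and 439 in F1-18 and 854, 798 and 946 in F1-25 (log2 fold change -1.099 ± 0.10, adjusted p = 1.23e-06), a tight set of libraries on each side.

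All 4 genes of the Acp53 cluster were lower, while the gene beside it was not called. Acp53Ea had 549, 587, 607 and 593 in F1-18, against 1174, 1133 and 1341 in F1-25 (log2 fold change -1.05 ± 0.11, adjusted p = 3.12e-06), and Acp53C14b had 680.5, 791, 716 and 896 in F1-18, against 1351, 1222 and 1319 in F1-25 (log2 fold change -0.76 ± 0.10, adjusted p = 3.27e-05). Neither overlapped. Acp53C14a and Acp53C14c were also lower, with log2 fold changes of -0.98 (adjusted p = 1.12e-05) and -1.07 (adjusted p = 0.000121), although Acp53C14c stood at 38.5 to 60.9 units in F1-18 and 102 to 121 in F1-25, far below the other genes of the cluster. Sfp53D, on the same strand beside them, had 103, 70.3, 166 and 114 in F1-18 and 76.6, 65.2 and 107 in F1-25 (log2 fold change 0.41 ± 0.28, adjusted p = 0.316). It was the member with a positive estimate, its groups overlapped, and its 95% interval was -0.17 to 0.99. Its difference from the cluster was not tested.

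The 3 members with the highest level per kb were lower as well. Acp95EF had 877, 1027, 921 and 1319 in F1-18, against 2141, 2130.3 and 2491 in F1-25 (log2 fold change -1.13 ± 0.12, adjusted p = 3.12e-06). Sfp87B had 812, 776, 633 and 984 in F1-18, against 2196, 2170.5 and 2736 in F1-25 (log2 fold change -1.57 ± 0.15, adjusted p = 1.34e-06). Sfp60F had 663, 554, 604 and 944 in F1-18, against 1768, 1781 and 2428 in F1-25 (log2 fold change -1.54 ± 0.18, adjusted p = 1.1e-05). In all 3 the F1-18 libraries stayed under the F1-25 libraries by a wide margin, and F1-18 D was the highest of the cold-treated libraries.

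Among the genes with the largest decreases, Acp54A1 stood alone. It had 4.98, 10.03, 0 and 6.26 in F1-18, against 191, 107 and 261 in F1-25 (log2 fold change -4.86 ± 1.06, adjusted p = 0.00226). It was thus close to absent from the cold-treated libraries, 1 of which lists it at 0. Without Acp54A1 the median of the members was -1.07. The adjusted p of Acp54A1 was 0.154 without the 8 libraries with totals of another group.

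The other large decreases were in genes of low to middling level with no role given here. Sfp23F had 5.68, 6.02, 9.12 and 8.83 in F1-18, against 27.7, 33.3 and 30.9 in F1-25 (log2 fold change -1.81 ± 0.29, adjusted p = 0.000178). Acp98AB had 40.7, 50.2, 22.9 and 56.5 in F1-18, against 145, 133 and 128 in F1-25 (log2 fold change -1.69 ± 0.23, adjusted p = 3.43e-05), with F1-18 C the lowest. None of these overlapped. Sfp77F had 22.1, 30.1, 25.6 and 36.4 in F1-18, against 92.2, 91.8 and 98.9 in F1-25 (log2 fold change -1.68 ± 0.22, adjusted p = 1.86e-05). Sfp35C had 13.5, 23.1, 21 and 44.2 in F1-18, against 83.3, 60.03 and 79.7 in F1-25 (log2 fold change -1.57 ± 0.25, adjusted p = 0.000137). Of the cold-treated libraries, Sfp35C was lowest in F1-18 A and highest in F1-18 D.

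In the small Sfp clusters on 2L every estimate was negative, and every member but Sfp33A4 was called. Sfp24Ba had 28.9, 30.1, 21.6 and 49.7 in F1-18, against 83.9, 76.7 and 114 in F1-25, and its log2 fold change of -1.47 stood beside -0.77 for Sfp24Bb and -0.84 for Sfp24Bc. All 3 were called (adjusted p = 0.000406, 0.000739 and 0.00324). In the other cluster Sfp33A2 and Sfp33A3 were called, at -1.05 (adjusted p = 0.0127) and -0.92 (adjusted p = 9.46e-05). Sfp33A4 was not, with 6.36, 14.04, 4.83 and 19.5 in F1-18 and 21.9, 19.99 and 26.2 in F1-25 (log2 fold change -1.05 ± 0.42, adjusted p = 0.0713). Its groups did not overlap, but F1-18 D reached almost the lowest control library, and the values rest on few reads.

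The remaining members that were not called were Acp32CD and Sfp79B. Acp32CD had 208, 264, 215 and 209 in F1-18 and 248, 238 and 300.1 in F1-25, a log2 fold change of -0.22 with a 95% interval of -0.47 to 0.03. A decrease of the size of the members' median lies outside that interval. Sfp79B had 5.33, 15.05, 18.5 and 15.2 in F1-18 and 11.4, 14.02 and 14.3 in F1-25, a level at which a difference of this size was not detectable (95% interval -0.77 to 0.64). The other members, all called lower and all without overlap, were Acp24A4, Acp33A, Acp63F, Sfp24C1, Sfp24F, Sfp26Ac, Sfp26Ad, Sfp33A1, Sfp36F, Sfp38D, Sfp51E, Sfp65A, Sfp70A4, Sfp78E, Sfp84E, Sfp93F and Sfp96F. Their log2 fold changes lay between -1.53 for Sfp96F and -0.55 for Sfp78E.

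**Figure D2:**
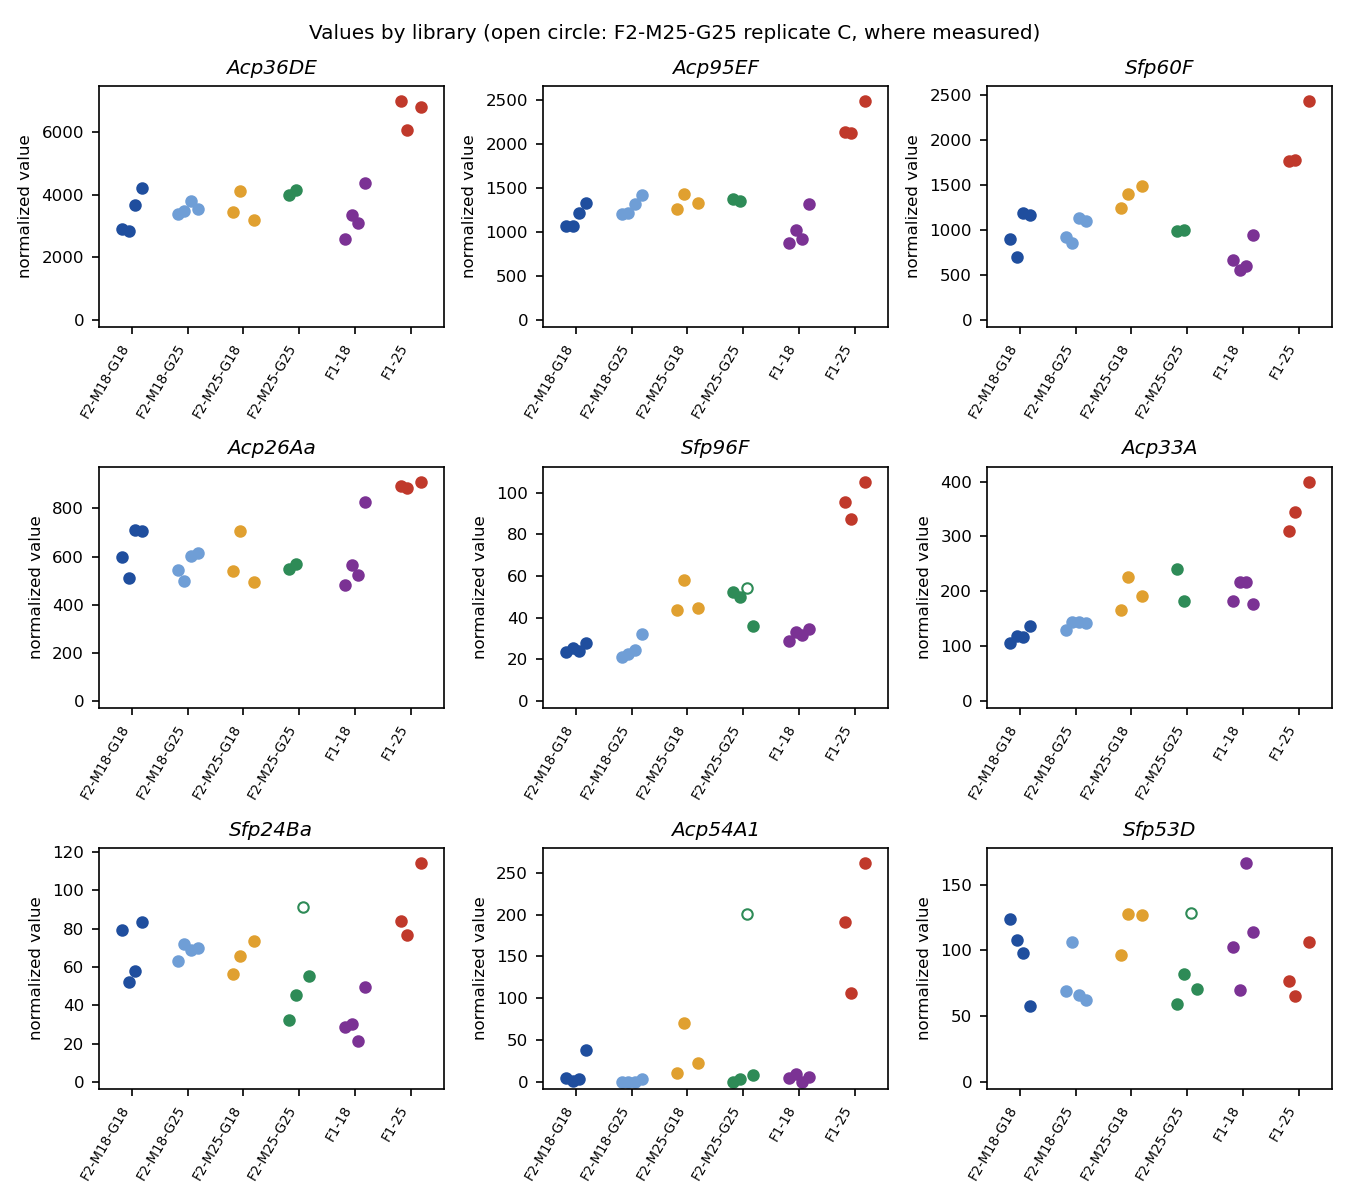
Normalized values of 9 members in every library (points) by group, with an open circle for replicate C of F2-M25-G25 where it was measured. The 3 F1-25 libraries stand above all the others in Acp36DE, Acp95EF, Sfp60F, Acp26Aa, Sfp96F and Acp33A, and the groups overlap in Sfp53D.

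The same direction ran through the other genes of seminal fluid, taken from lists set up for this purpose. Of 23 other seminal fluid genes tested, of 24 listed, 20 were lower in F1-18 than in F1-25 and 0 were higher (median log2 fold change -0.98). The largest decreases were in BG642312 (log2 fold change -2.01 ± 0.25, adjusted p = 1.86e-05) and in the serpin genes Spn77Bb (log2 fold change -1.84) and Spn77Bc (-1.70). Of 9 genes of the sex peptide and the proteins that carry it onto sperm, 6 were lower (median -0.62). Among these were SP, the sex peptide itself, which starts most of the responses of the mated female (log2 fold change -0.97 ± 0.15, adjusted p = 0.000113), the protease Sems (-1.09) and aqrs (-0.85). By the same test, 0 of 4 regulators of the gland (prd, Abd-B, dve and dsx, transcription factors of its growth or cell types) were called, with a median of -0.17. Of 14 genes of translocation into the endoplasmic reticulum and folding there, 5 were lower (median -0.23), among them the chaperones Gp93 (-0.57), Hsc70-3 (-0.45) and Calr (-0.43). These genes are used in all secretory cells.

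Genes of other parts of the male tract moved in the same comparison. Of 6 genes of the ejaculatory duct and bulb, 5 were lower in F1-18 (median -1.31), including Est-6, an esterase of the duct (-1.85), Anp, an antimicrobial peptide of the duct (-1.42), and EbpII of the bulb (-1.31). Their summed value was 3685 to 4586 in F1-18 and 5874 to 8146 in F1-25. Of 11 testis genes 6 were lower (median -0.32), among them can (-0.68), dj (-0.41) and S-Lap1 (-0.35), with sums of 16579 to 17646 in F1-18 and 20450 to 22146 in F1-25. Of 6 larval fat body genes 0 were called (median 0.76), with sums of 45154 to 84136 in F1-18 and 23732 to 56003 in F1-25. Of 2 female genes tested 1 was higher, the yolk protein gene Yp2 (2.39), where 1240 of 11314 genes tested were higher. The summed value of the 3 female genes in the table was only 30.1 to 66.4 in F1-18 and 11.2 to 26.5 in F1-25. The part of these other tissues in the members' decrease was not tested.

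Across all 6 groups, F1-25 was the group that stood apart. The group mean, taken without replicate C of F2-M25-G25, was highest in F1-25 in 40 of the 44 members. The others were Acp32CD, highest in F2-M18-G25, Sfp36F and Sfp53D, highest in F2-M25-G18, and Sfp79B, highest in F1-18. The lowest mean was in F1-18 in 25 members, in F2-M18-G18 in 9, in F2-M18-G25 in 4, in F2-M25-G18 in 3, in F2-M25-G25 in 3 and in F1-25 in 0. In 33 members every F2 library other than replicate C of F2-M25-G25 lay below every F1-25 library. Among these 33 members, C was above an F1-25 library in 1, Acp54A1. In 0 members did every F2 library lie above every F1-18 library. The shares of all genes with these patterns across the 6 groups were not worked out. The summed value of the members was 11153 to 15381 in F2-M18-G18, 12757 to 14169 in F2-M18-G25 and 13177 to 15829 in F2-M25-G18. In F2-M25-G25 it was 14619 to 14621, from replicates A and B only. The F2 groups thus overlapped with F1-18, at 10168 to 14445, or nearly so. All of these sums were below the 22966 to 27157 of F1-25.

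F2-M25-G25 against F1-25 compares flies of the same temperature and control ancestry in successive generations. The members were lower in the F2 flies too. Of 44 members 25 were called lower and 0 higher, with a median log2 fold change of -0.69, while 3.82% of all genes tested were called lower. All measured F2-M25-G25 libraries were below all F1-25 libraries in 36 members, and in 14.8% of all genes tested. This comparison uses the same 3 F1-25 libraries as F1-18 against F1-25, so that the decreases in each are not separate evidence, and generation and the handling of the eggs cannot be told apart in it. The count was 12 without F2-M25-G25 A, 7 without F2-M25-G25 B, 16 without F1-25 D, 7 without the 8 libraries with totals of another group and 18 without the 3 F1 libraries.

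The largest called decreases were in Acp54A1, Sfp33A4 and Sfp77F. Acp54A1 had 0, 3.05 and 8.77 in F2-M25-G25 A, B and D, and 200.3 in replicate C, against 191, 107 and 261 in F1-25 (log2 fold change -3.86 ± 1.06, adjusted p = 0.0301, with C). Only replicate C was in the range of the control F1 males, and leaving it out gave a log2 fold change of -5.21 (adjusted p = 0.000539). Sfp33A4 had 3.86, 6.5 and 6.49 in F2-M25-G25 A, B and D and 11.8 in C, against 21.9, 19.99 and 26.2 in F1-25 (log2 fold change -1.49 ± 0.42, adjusted p = 0.0338). The adjusted p of each of these genes was above 0.05 when any of A, B or D of F2-M25-G25 or any library of F1-25 was left out, up to 0.153 for Acp54A1 and 0.13 for Sfp33A4. Neither was called without the 8 libraries with totals of another group (adjusted p = 0.393 for Acp54A1 and 0.365 for Sfp33A4) or without the 3 F1 libraries (adjusted p = 0.051 for Acp54A1 and 0.0679 for Sfp33A4). Acp54A1 was also not called with only the groups compared (adjusted p = 0.137) or with robust empirical Bayes (adjusted p = 0.0722). Sfp77F had 50.6, 39.8 and 26.1 in A, B and D and 41.4 in C, against 92.2, 91.8 and 98.9 in F1-25 (log2 fold change -1.25 ± 0.22, adjusted p = 0.00203). No F2-M25-G25 library came near the F1-25 libraries, and of the alternatives run the call was lost only without the 8 libraries with totals of another group (adjusted p = 0.102).

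Members with known work in the female were in this set. Acp36DE had 3982 and 4149 in F2-M25-G25, against 6993, 6066 and 6821 in F1-25 (log2 fold change -0.70 ± 0.18, adjusted p = 0.0219), and Acp26Aa had 547 and 567.7 in F2-M25-G25, against 891, 885 and 908 in F1-25 (log2 fold change -0.68 ± 0.18, adjusted p = 0.0301). Both F2 libraries lay below the 3 control F1 libraries. The serpin Acp76A had 518 and 513 in F2-M25-G25, against 1010.2, 941 and 1122 in F1-25 (log2 fold change -0.98 ± 0.17, adjusted p = 0.00239). Acp29AB was not called, with 69.98 and 67.1 in F2-M25-G25 and 100.2, 102 and 129 in F1-25 (log2 fold change -0.66 ± 0.23, adjusted p = 0.0934), although its groups did not overlap. Acp32CD (-0.03, 95% interval -0.33 to 0.27) and Sfp53D (0.01, 95% interval -0.57 to 0.59) had estimates near 0. Of the other lists, 11 of 23 other seminal fluid genes, 1 of 9 genes of the sex peptide network (SP, -0.72), 5 of 6 genes of the ejaculatory duct and bulb and 1 of 6 larval fat body genes were lower, and 0 of 4 regulators, 0 of 14 genes of the endoplasmic reticulum, 0 of 11 testis genes and 0 of 2 female genes were called.

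**Figure D3:**
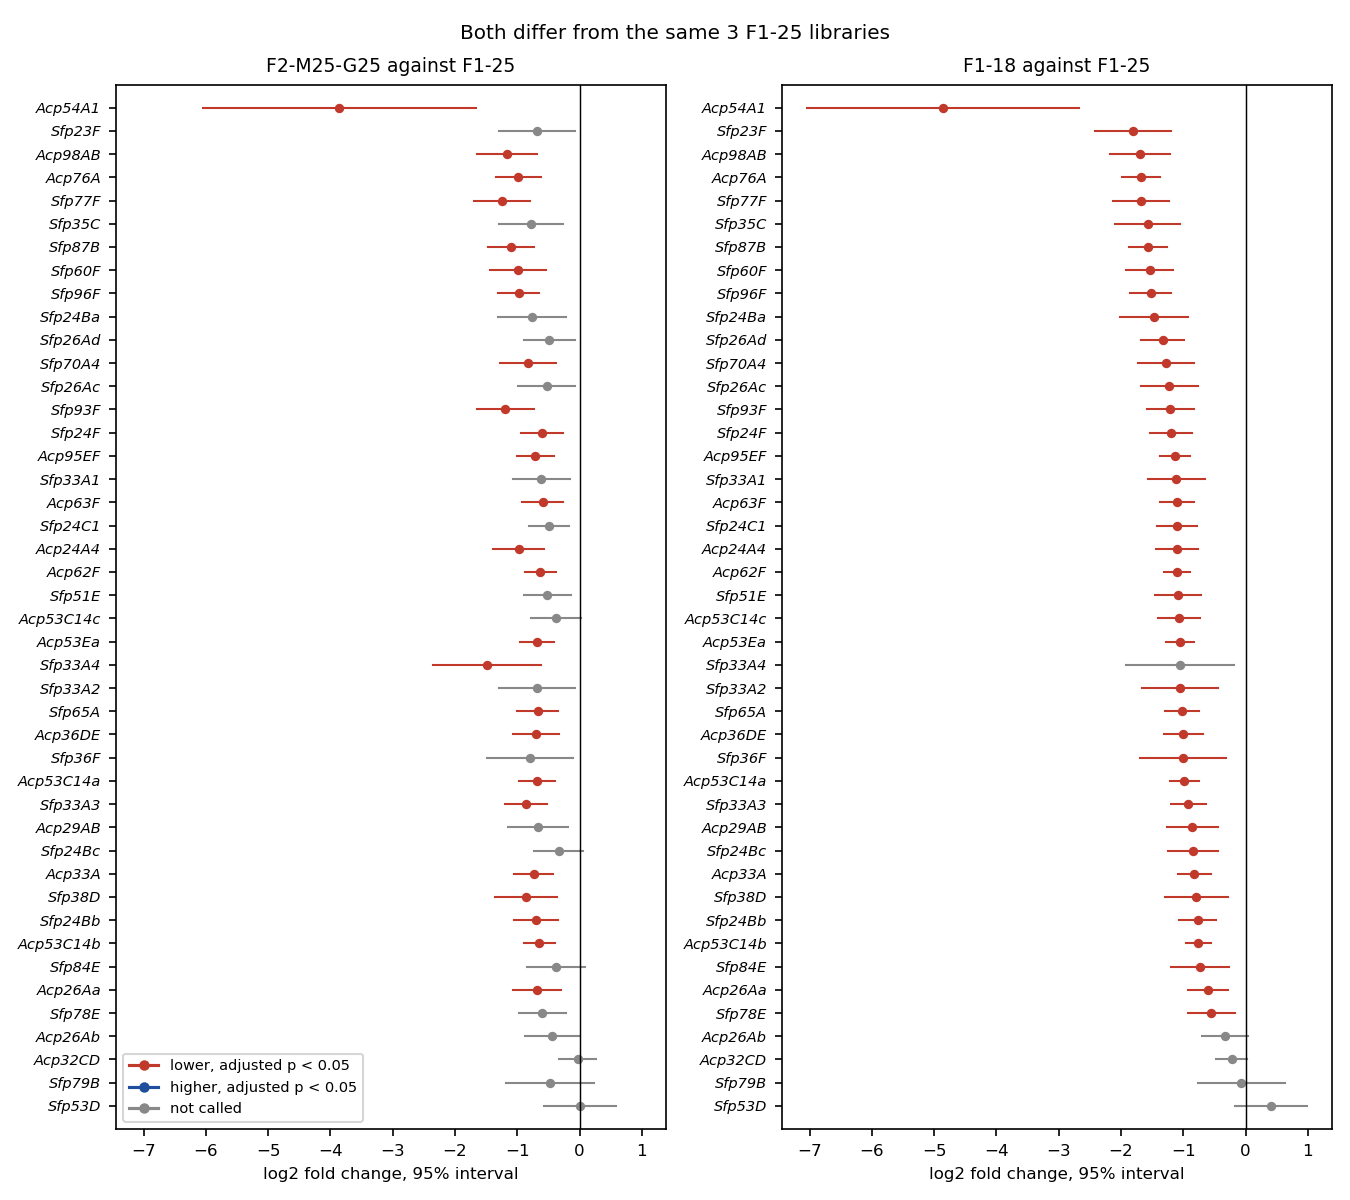
Log2 fold changes of the 44 members (points) with 95% intervals (bars) in F2-M25-G25 against F1-25 and in F1-18 against F1-25, red where called lower. The same 3 F1-25 libraries stand in both panels. There are 25 red members in the first and 39 in the second, and no member was called higher in either.

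F2-M18-G18 against F1-18 sets males with cold-treated ancestry on both sides, reared at 25 °C, beside the cold-treated males themselves. Rearing temperature, generation, the washing of the eggs and the food with faeces cannot be told apart in this comparison. Of 44 members 6 were called, close to the share of all genes tested (1669 of 11314). There were 5 called higher and 1 lower (7.58% and 7.17% of all genes tested), with a median log2 fold change of 0.15. Sfp24Ba had 79.5, 52.2, 58.1 and 83.5 in F2-M18-G18, against 28.9, 30.1, 21.6 and 49.7 in F1-18 (log2 fold change 1.06 ± 0.24, adjusted p = 0.00576), and Sfp87B had 1228, 939, 1293 and 1439.9 in F2-M18-G18, against 812, 776, 633 and 984 in F1-18 (log2 fold change 0.61 ± 0.14, adjusted p = 0.0051). Sfp24Ba did not overlap, and in Sfp87B the lowest F2 library was below the highest F1-18 library. Sfp51E had 66.2, 61.2, 101 and 90.9 in F2-M18-G18, against 46.3, 49.2, 60.7 and 56.2 in F1-18 (log2 fold change 0.55 ± 0.17, adjusted p = 0.0292). Sfp60F (0.51) and Sfp26Ad (0.49) were the other increases. The decrease was in Acp33A, with 105, 118, 116 and 137 in F2-M18-G18, against 182, 217, 216 and 176 in F1-18 (log2 fold change -0.72 ± 0.12, adjusted p = 0.000495), where every F2 library was below every F1-18 library. Counts of 3 called members were found without F2-M18-G18 C, without F2-M18-G18 D and without F1-18 B, and 6 and 2 without the 8 and the 3 libraries with totals of another group. Without the 3 F1 libraries Sfp24Ba (adjusted p = 0.102), Sfp87B (adjusted p = 0.0974) and Sfp51E (adjusted p = 0.088) were not called, and Sfp51E was also lost without F2-M18-G18 C or D or F1-18 A or B, up to 0.12. Of the lists, 3 other seminal fluid genes were higher and 1 lower, of 23. The sex peptide network had 1 of 9 higher (aqrs, 0.31), the endoplasmic reticulum 1 of 14 higher (CrebA, 0.39) and the female genes 1 of 2 lower, and no gene of the regulators, the ejaculatory duct and bulb, the testis or the larval fat body was called.

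The history of the F2 males, F2-M18-G18 against F2-M25-G25, asks whether a cold-treated ancestry was seen in offspring reared at 25 °C. The eggs of F2-M18-G18 were laid at 18 °C, so early exposure and ancestry cannot be told apart here. Of 44 members 2 were called lower and 0 higher (0.681% of all genes tested were called lower). The median log2 fold change was -0.22. An unadjusted p under 0.05 was found in 10 members and in 1973 of 11314 genes tested. Sfp96F, the member with the shortest exon length, had 23.3, 25.3, 23.9 and 27.8 in F2-M18-G18, against 52.1, 49.99 and 36.01 in F2-M25-G25 A, B and D and 54.4 in C (log2 fold change -0.87 ± 0.15, adjusted p = 0.00331). Acp33A, also very short, had 105, 118, 116 and 137 in F2-M18-G18, against 239.9 and 181 in F2-M25-G25 (log2 fold change -0.80 ± 0.14, adjusted p = 0.00439). Neither gene overlapped between the groups. Both were also lower in F1-18 than in F1-25. Sfp96F had 28.9, 33.1, 31.5 and 34.4 in F1-18, against 95.5, 87.3 and 105 in F1-25 (log2 fold change -1.53 ± 0.16, adjusted p = 2.42e-06), and Acp33A had 182, 217, 216 and 176 in F1-18, against 309.8, 345 and 399 in F1-25 (log2 fold change -0.82 ± 0.13, adjusted p = 0.000156). Without F2-M25-G25 A the count was 0, with adjusted p-values of 0.0872 for Sfp96F and 0.2 for Acp33A, and without F2-M18-G18 D it was 5. It was 2 both without the 8 libraries with totals of another group and without the 3 F1 libraries.

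The F1 difference was larger than the F2 difference in many members. The difference between the contrasts, F1-18 minus F1-25 less F2-M18-G18 minus F2-M25-G25, was called lower in 22 members and higher in 0 (median -0.85), against 3.16% of all genes tested called lower. It was -1.71 ± 0.22 in Sfp87B (adjusted p = 0.000505), -1.33 ± 0.22 in Acp76A (adjusted p = 0.00263) and -0.76 ± 0.15 in Acp62F (adjusted p = 0.00763). It was not called in Sfp96F (-0.65, adjusted p = 0.0865) or in Acp33A (-0.02, adjusted p = 0.971, 95% interval -0.42 to 0.38). The count was 12 without F2-M25-G25 A, 10 without F2-M25-G25 B, 14 without the 8 libraries with totals of another group and 5 without the 3 F1 libraries. Of the lists, 10 of 23 other seminal fluid genes and 2 of 9 of the sex peptide network were lower in this contrast. So were 2 of 14 of the endoplasmic reticulum and 5 of 6 of the ejaculatory duct and bulb. Also lower were 2 of 6 of the larval fat body. Of 2 female genes 1 was higher, where 183 of 11314 genes tested were higher. Of the 4 regulators and the 11 testis genes 0 were called.

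The F2 groups also allow the microbiome and the germline source to be compared separately, with the crossed groups taken as the libraries name them. With the microbiome held, no member was called for the germline source. F2-M18-G18 against F2-M18-G25 called 0 of 44 (1.77% of all genes tested were called in either direction), 2 had an unadjusted p under 0.05, and the smallest p was that of Sfp33A2, with 13.4, 8.11, 8.84 and 16.2 in F2-M18-G18 and 10.8, 22.1, 14.4 and 30.6 in F2-M18-G25 (log2 fold change -0.60 ± 0.27, adjusted p = 0.308). These groups overlapped. F2-M25-G18 against F2-M25-G25 called 0 of 44 (7.06% of all genes tested), 4 had an unadjusted p under 0.05, and the smallest p was that of Sfp36F, with 12.3, 27.6 and 17.1 in F2-M25-G18, against 12.8, 7.84 and 4.69 in F2-M25-G25 A, B and D and 9.01 in C (log2 fold change 0.98 ± 0.33, adjusted p = 0.0711). The lowest F2-M25-G18 value was within the range of F2-M25-G25. Over all genes tested, 2745 of 11314 had an unadjusted p under 0.05 here. Without the 8 libraries with totals of another group these comparisons called 0 and 1 member, and without the 3 F1 libraries 0 and 0.

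With the crossed groups as named by the libraries and the germline held, Sfp96F was lower with the microbiome of cold-treated flies in both comparisons. Acp33A was called lower in 1 of them. F2-M18-G18 against F2-M25-G18 called 2 of 44 lower and 0 higher (0.371% of all genes tested were lower). Sfp96F had 23.3, 25.3, 23.9 and 27.8 in F2-M18-G18, against 43.5, 58.2 and 44.8 in F2-M25-G18 (log2 fold change -0.90 ± 0.16, adjusted p = 0.0102), and Acp33A had 105, 118, 116 and 137 in F2-M18-G18, against 166, 226 and 191 in F2-M25-G18 (log2 fold change -0.69 ± 0.13, adjusted p = 0.0142). In both genes all libraries with the microbiome of cold-treated flies were below all with that of control flies. F2-M18-G25 against F2-M25-G25 called 1 of 44 lower and 0 higher (0.0265% of all genes tested, 3 genes, were lower), and this was Sfp96F, with 20.97, 22.8, 24.5 and 32.2 in F2-M18-G25, against 52.1, 49.99 and 36.01 in F2-M25-G25 A, B and D (log2 fold change -0.89 ± 0.15, adjusted p = 0.0197). Acp33A had 129, 143, 143 and 141 in F2-M18-G25 and 239.9 and 181 in F2-M25-G25 and was not called there (log2 fold change -0.58 ± 0.14, adjusted p = 0.222). The first comparison called 0 without F2-M25-G18 B, 0 without F2-M25-G18 D, 1 without F2-M18-G18 A and 1 without the 8 libraries with totals of another group. The call in the second was lost without any of F2-M18-G25 A, B or C or F2-M25-G25 A, B or C (adjusted p up to 0.0991) and without the 8 libraries.

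An additive model with a term for each source was fitted to the F2 libraries. With the microbiome of cold-treated flies 3 of 44 members were lower and 0 higher, against 0.6% of all genes called lower. An unadjusted p under 0.05 was found in 15 members and in 1949 of 11173 genes. Sfp96F changed by -0.89 ± 0.12 (adjusted p = 0.00129), Acp33A by -0.64 ± 0.09 (adjusted p = 0.00171) and Acp63F, a short secreted protein, by -0.40 ± 0.09 (adjusted p = 0.0327) on the log2 scale. Acp63F had 189.8, 195, 226 and 249 in F2-M18-G18 and 213, 211, 272 and 251 in F2-M18-G25, against 253, 339 and 269 in F2-M25-G18 and 328 and 288 in F2-M25-G25. The libraries of both sources overlapped in it, through F2-M18-G25 C, and its call was lost without any of 8 libraries (F2-M18-G18 A, B or C, F2-M18-G25 A or B, F2-M25-G18 B or D and F2-M25-G25 A, adjusted p up to 0.0872). The count was 5 without F2-M18-G18 D, 2 without the 8 libraries with totals of another group and 3 without the 3 F1 libraries. If the crossed groups are exchanged, as the sample titles would have it, Sfp96F no longer differs by microbiome source (log2 fold change 0.019) and Acp33A is not called (-0.18, adjusted p = 0.173). The libraries then divided by germline source are those divided above by microbiome source. The calls of Sfp96F, Acp33A and Acp63F are then calls for the germline source.

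For the germline source 4 of 44 members, and 3413 of 11173 genes, had an unadjusted p under 0.05. After adjustment 1 member was lower and 0 higher, where 6.87% of all genes were lower. This was Acp32CD, with 282, 229, 283 and 234 in F2-M18-G18 and 229.8, 182 and 192 in F2-M25-G18, against 317, 304, 272 and 286 in F2-M18-G25 and 231 and 282 in F2-M25-G25 (log2 fold change -0.26 ± 0.08, adjusted p = 0.0363). The groups overlapped, and the call was lost without any of 8 libraries (F2-M18-G18 B or D, F2-M18-G25 A or B, F2-M25-G18 B or D and F2-M25-G25 A or B, adjusted p up to 0.129). With the crossed groups exchanged its log2 fold change was 0.29. The count was 4 without F2-M18-G18 D, 3 without F2-M25-G25 C, 0 without F2-M18-G18 B, F2-M18-G25 A, F2-M25-G18 B or D or F2-M25-G25 A or B, and 1 without either set of libraries with totals of another group. The interaction of the sources called 0 members (0.134% of all genes). An unadjusted p under 0.05 was found in 2 members and in 1403 of 11173 genes. The smallest p of the members was that of Sfp36F (log2 fold change -1.51 ± 0.48, adjusted p = 0.204).

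**Figure D4:**
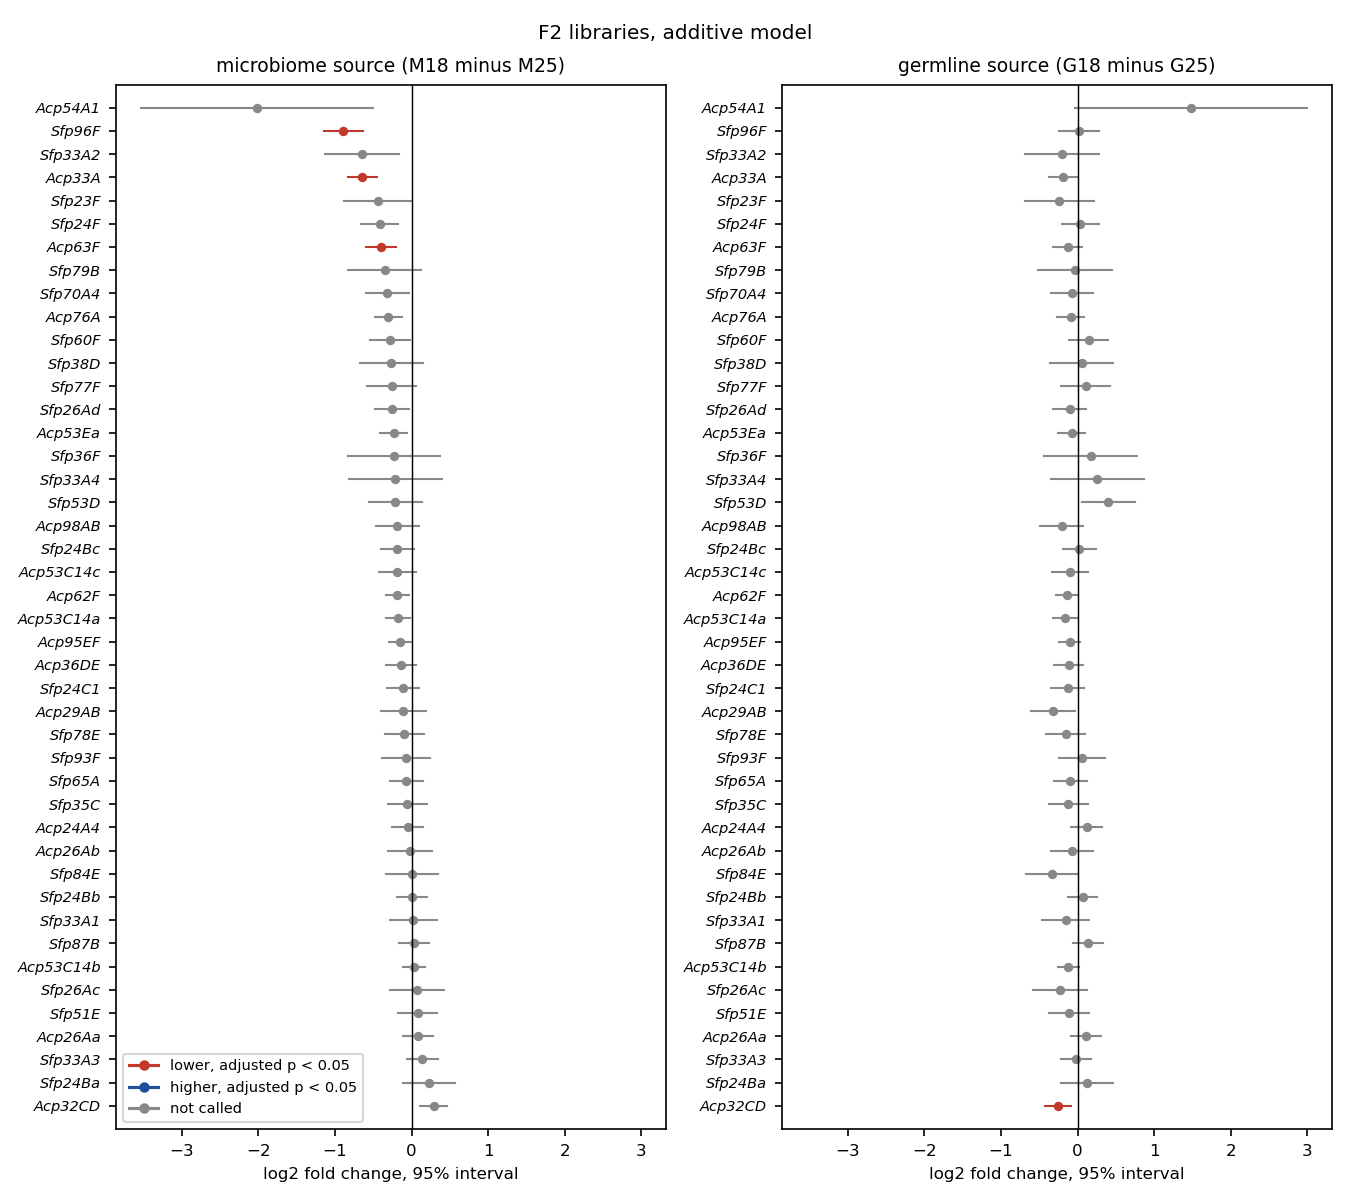
Log2 fold changes of the 44 members (points) with 95% intervals (bars) for the microbiome source (M18 minus M25) and the germline source (G18 minus G25) in the additive model of the F2 libraries, red where called lower. Sfp96F, Acp33A and Acp63F are red in the first panel and Acp32CD in the second, with the crossed groups as named by the libraries.

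Genes of the other lists were called in the F2 comparisons too, with the crossed groups as named by the libraries. All 6 larval fat body genes (larval serum proteins and fat body proteins) were higher with the germline of cold-treated flies, with a median log2 fold change of 2.36. Their summed value was 95802 to 114288 in F2-M18-G18 and 68152 to 85359 in F2-M25-G18. It was 12697 to 12740 in F2-M25-G25 (A and B only) and 8994 to 99949 in F2-M18-G25, where replicate D was the high one. By germline source 5 of 6 genes of the ejaculatory duct and bulb were higher (median 0.46), 6 of 11 testis genes lower (median -0.20), 3 of 9 genes of the sex peptide network lower, 2 of 22 other seminal fluid genes higher (Spn77Bc, 1.24, and Spn77Bb, 0.71), and 0 of 4 regulators, 0 of 14 genes of the endoplasmic reticulum and 0 of 1 female gene called. By microbiome source 2 of 22 other seminal fluid genes were higher, msopa (0.64) and BG642163 (0.61), the opposite direction to Sfp96F and Acp33A, and no gene of any other list was called. With F2-M18-G18 set against F2-M25-G25, all 6 larval fat body genes (median 3.05) and Dup99B of the ejaculatory duct (0.67) were higher and 3 of 11 testis genes lower, with 0 called among the other lists. The part of these shifts in the members' values was not tested.

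Most pairs of members were positively correlated across libraries. Such correlations were not worked out for other genes. Over 20 libraries, F2-M25-G25 entering with A and B only, the median correlation of log2 values over the 946 pairs of members was 0.69, a description that includes the high F1-25 group and shared library effects. It was 0.32 over the 13 F2 libraries and 0.37 for deviations from group means. Sfp53D (median correlation with the other members -0.23) and Acp32CD (0.09) followed the others least. Replicates of a group differed by a median coefficient of variation of 9.55% in F1-25, 11.8% in F2-M18-G25, 15.1% in F2-M25-G18, 17.4% in F2-M18-G18 and 19.5% in F1-18, against 11.4 to 15.7% over all genes tested in these groups.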

How the data were processed

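RNA-seq values of total RNA, depleted of ribosomal RNA, were analysed for 22 libraries. The authors removed remaining rRNA reads with SortMeRNA, trimmed with Trimmomatic 0.32, aligned with STAR 2.4.0f1, counted reads per gene and strand with HTSeq 0.6.1 and normalized the counts by the TMM method of edgeR, so that the deposited values are a normalized signal, not whole counts. Library sums of 3702933 to 4398050 follow that normalization. The low values were used to recover the reads behind each library. In place of the count test planned, log2(value + 2) was fitted with limma 3.58.1 in R 4.3.3, with a mean for each group, 1 spread over all libraries and a mean-variance trend; source terms were fitted on the F2 libraries alone (11173 genes). Values of F2-M25-G25 C and D that were the A and B mean shifted by a whole number (tolerance 0.001) were left out. The fits were tested on simulated data. Tables and figures used Python 3.11.15, numpy 2.4.6, pandas 2.3.3 and matplotlib 3.10.9.

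The members and lists were chosen with earlier results of these data known. Members given by library were the 6 with the highest value per kb, the 8 largest called decreases and 4 largest increases in F1, up to 6 in each direction for F2-M18-G18 set against F2-M25-G25, and up to 3 in each direction, or that with the smallest p, elsewhere. Other members with a known role, in a cluster, or not called in F1 were added after their values were seen. The lists were other seminal fluid genes, the sex peptide network, gland regulators, endoplasmic reticulum, ejaculatory duct and bulb, testis, larval fat body and female genes, with up to 3 examples each. The listed genes Pdi, Peb, Mst35Ba, Mst35Bb, don, Vm26Aa, Vm26Ab, Vm34Ca, Cp36 and Cp38 were not used. In the main fit replicate letters were not used to pair the libraries. Alternatives covered scaling, filter, pseudocount, samples in the fit, the replicate block, the crossed groups, the calculated values and left-out libraries, and the 2 that leave out libraries with totals of another group were chosen after seeing the data.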

Additional observations from a re-analysis of the deposited data

Results flagged for a closer look

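Among 154 groups of 4 libraries in which a member was examined, 13 held a library whose distance to the others was large for the range of the group, where chance gives about 1 in 20. Acp54A1 held 3 of them, with a value of 37.8 in F2-M18-G18 D, 3.36 in F2-M18-G25 D and 200.3 in F2-M25-G25 C, each above the others of its group. In F2-M18-G25 the high values were Sfp53D in B with 106 and the low ones Acp33A in A with 129, Sfp24Bb in B with 396 and Sfp33A4 in B with 3.27. In F2-M18-G18 Acp53C14a was high in D, with 734, and in F1-18 Acp32CD was high in B, with 264. In F2-M25-G25 Sfp70A4 was high in C with 66.9, Sfp33A2 was high in A with 25.9, Sfp24Bc was low in A with 33.4 and Sfp24F was low in D with 32.3.

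The F1 difference was F1-18 minus F1-25, and the F2 difference was F2-M18-G18 minus F2-M25-G25. These differed by a limma test of the contrast in 9 of the members named for F1. The 9 were named for their level per kb or for the largest called decreases in F1. The contrast holds the same F1 values, so naming members by their F1 decrease favours a negative contrast. Without such a choice, the contrast was called lower in 22 of the 44 members and in 3.16% of all genes tested. The contrast was -1.71 in Sfp87B, -1.52 in Sfp77F, -1.49 in Sfp60F, -1.40 in Sfp35C, -1.33 in Acp76A, -1.30 in Acp98AB, -0.90 in Acp95EF, -0.71 in Acp53Ea and -0.66 in Acp53C14b, on the log2 scale.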

How the results depend on the processing

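Counts of called members in F1-18 against F1-25 were 36 to 41 under the planned settings and 35 to 40 when 1 library was left out, beside 39. With 1 library left out, the counts were 0 to 5 for F2-M18-G18 against F2-M25-G25, 0 to 2 in F2-M18-G18 against F2-M25-G18, 0 to 1 in F2-M18-G25 against F2-M25-G25, 7 to 28 in F2-M25-G25 against F1-25, 3 to 9 in F2-M18-G18 against F1-18, 10 to 24 for the difference of the F1 and F2 differences, 0 to 4 for the germline source and 2 to 5 for the microbiome source. With the calculated values of F2-M25-G25 kept, F2-M18-G18 against F2-M25-G25 called 7, F2-M25-G18 against F2-M25-G25 called 2, F2-M18-G25 against F2-M25-G25 called 2, the germline source 2 and the microbiome source 6. Without C and D in any gene, F2-M25-G18 against F2-M25-G25 called 1 and the germline source 3. With the crossed groups exchanged, F2-M18-G18 against F2-M18-G25 called 2, F2-M25-G18 against F2-M25-G25 called 1, F2-M18-G18 against F2-M25-G18 called 0, F2-M18-G25 against F2-M25-G25 called 0, the germline source 3 and the microbiome source 1. The log2 fold change of Sfp96F then turned to 0.014 in F2-M18-G18 against F2-M25-G18, 0.025 in F2-M18-G25 against F2-M25-G25 and 0.019 for the microbiome source, and that of Acp32CD to 0.29 for the germline source, since the libraries compared are others. Scaled to equal library totals, F2-M25-G18 against F2-M25-G25 called 2, F2-M18-G18 against F1-18 called 10 and the germline source 7; this scaling moved the median of all genes by -0.153 in F1-18 against F1-25, -0.106 for F2-M18-G18 against F2-M25-G25, -0.174 in F2-M25-G18 against F2-M25-G25, -0.108 for the germline source and 0.115 for the interaction. With only the groups compared, F2-M25-G18 against F2-M25-G25 called 1, F2-M18-G25 against F2-M25-G25 called 0 (Sfp96F, adjusted p = 0.0541) and F2-M18-G18 against F1-18 called 3. Without the 8 libraries with totals of another group, F2-M25-G18 against F2-M25-G25 called 1, F2-M18-G18 against F2-M25-G18 called 1, F2-M18-G25 against F2-M25-G25 called 0, F2-M25-G25 against F1-25 called 7 and the difference of differences 14, and without the 3 F1 libraries F2-M18-G18 against F1-18 called 2 and the difference of differences 5. With the replicate block, F2-M18-G18 against F2-M25-G25 called 7, the germline source 0 and the microbiome source 5. Deviations of same-letter libraries had a mean correlation of -0.13 to 0.12, over only 2 to 4 pairs in a comparison. It was 0.12 in F2-M18-G18 against F1-18 (other letters -0.04) and -0.13 in F1-18 against F1-25 (other letters 0.05). So few pairs cannot decide whether the letters pair the libraries. Apart from the settings named, the causes of the changes in these counts were not tested. The 31 gene results kept direction and call in 616 of 690 alternatives, lost the call in 69, gained it in 1 and turned in 4. Replication of 2 libraries in F2-M25-G25 for 22 members, and low values in many Sfp genes, limit what could be detected.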

Other observations

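Replicate C of F2-M25-G25 was measured, and not calculated, in 22 members. It lay above replicates A, B and D in 12 of them, below them in 0 and between them in 10. In Acp54A1 it had 200.3, against 0, 3.05 and 8.77 in A, B and D, and in Sfp24Ba 91.5, against 32.3, 45.6 and 55.2. In Sfp53D it had 128, against 59.5, 82.3 and 70.4, and in Acp98AB 81.4, against 62.9, 49.5 and 48.1.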
